A study of Mus musculus with 42 samples.

Results

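The difference between the right and the left heart field was compared between 2 laterality clusters of mouse embryos, heterotaxy and situs solitus. The comparison held 16 of the 21 sequenced embryos and 32 of the 42 libraries, with a left and a right library from each embryo. The heterotaxy cluster had 6 embryos, named 3_7, 15_5, 18_1, 19_4, 23_3 and 32_3, all of the genotype *Ccdc40*lnks/lnks, of which 4 were male and 2 female. The situs solitus cluster had 10 embryos, of which 5 were wild types (*Ccdc40*+/+, named 7_1, 8_1, 10_1, 17_7 and 22_4) and 5 were *Ccdc40*lnks/lnks mutants (1_6, 2_2, 17_1, 19_6 and 22_1), with 6 males and 4 females in all. The lnks allele is a chemically induced nonsense mutation of *Ccdc40*, whose product is needed for cilia to beat. Embryos were taken at the stage E8.5i, when the direction of heart looping can be seen, and all 16 had rightward looping. The heart field, which holds the precursors of the heart behind and around the heart tube, was cut out without the tube, the head, the back and the lower trunk, and was divided into its left and right parts.

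The clusters themselves came from the data. The study grouped all 21 embryos by the right against left differences of the genes that were most consistently asymmetric in its wild types, in these same libraries, and the embryos of each cluster are taken from that grouping. Every difference of asymmetry between the clusters, and every asymmetry within a cluster, is therefore a description of the grouping. Counts of genes past a threshold of a fit of asymmetry describe it as well, and nothing is read from them. The summed level of a gene over both sides was not used in the grouping, and this was tested. The other 5 embryos, mutants with inverted looping, entered the fits for the estimate of the spread.

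At the node of the mouse embryo, beating cilia drive a leftward flow of fluid, which the study describes as lost in these mutants. The flow acts on the side of expression of *Nodal*, which is normally the left lateral plate mesoderm. This secreted signal turns on its own antagonists *Lefty1* and *Lefty2*. The study describes *Lefty1* as expressed in the midline, and far less in the lateral plate mesoderm. The heart field lies in this mesoderm, and progenitors at its venous pole also contribute to the lung. In heterotaxy the asymmetries of different organs or of parts of an organ do not match each other, whereas in situs solitus they have their usual arrangement.

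Library totals ranged from 37517697 to 49787293 counts in heterotaxy and from 36572530 to 55958371 in situs solitus, with medians of 43934408 and 43689226. Levels are in CPM, each count taken relative to the effective size of its library, and asymmetry as the log2 ratio of right over left, so that a negative value means more RNA on the left. A difference of asymmetry is the log2 ratio of heterotaxy minus that of situs solitus, and its standard error (SE) comes from the fit of all libraries. In bulk tissue, fewer cells of a type and less RNA per cell cannot be told apart. *Ccdc40* itself, the mutated gene, lay at 8.83 to 14.0 CPM in the 12 heterotaxy libraries, at 9.86 to 14.6 CPM in the 10 libraries of situs solitus mutants, and at 15.2 to 26.5 CPM in the 10 wild-type libraries. The mutant and wild-type ranges did not overlap.

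One heterotaxy embryo, 15_5, stood apart on both sides. The summed level of 5 genes of trophoblast giant cells was 158 CPM on its left and 141 CPM on its right, against 7.88 to 126 CPM in the other 30 libraries. Genes of the decidua and uterine stroma summed to 288 and 391 CPM, against 0.404 to 126 CPM elsewhere. Genes of the interferon response summed to 75.1 and 118 CPM, against 0.867 to 4.52 CPM. These 3 lists were written after the values had been seen. Trophoblast and decidua lie outside the embryo, and values without this embryo are given beside several results below. The decidua sum was also uneven in situs solitus. It was higher on the left in 2_2, 17_1, 17_7, 19_6, 22_1 and 22_4, and on the right in 1_6, 7_1, 8_1 and 10_1. It was 126 (left) against 26.7 CPM (right) in 17_7, and 4.96 against 43.7 CPM in 7_1. *Tac2* was higher on the left in both, at 8.38 against 2.88 CPM and 1.55 against 1.07 CPM. The part of decidua in the ratios was not tested.

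**Figure D1:**
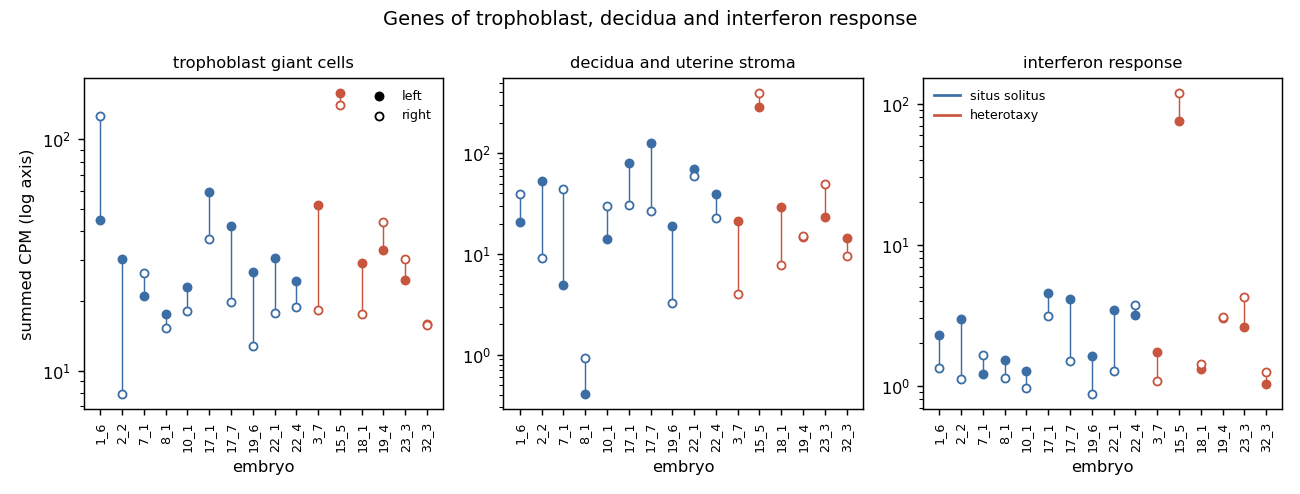
Summed CPM of 5 genes each of trophoblast giant cells, decidua and uterine stroma, and interferon response (log axis), for the left and right library of each of the 16 embryos on the horizontal axis. The embryo 15_5 has 75.1 and 118 CPM of interferon response genes, whereas no other library exceeds 4.52 CPM.

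Most of the large differences of asymmetry were a move from the left in situs solitus to the right in heterotaxy. Among 11668 genes with an average of at least 200 reads on a side of a cluster, 397 had a log2 difference above 0.5, which was 3.4% of these genes, and 68 had one below -0.5, which was 0.583%. Of the 397 genes, 390 had a negative ratio in situs solitus and a positive ratio in heterotaxy. Of the 68 genes, 59 changed from a positive to a negative ratio. The median difference over all of these genes was -0.01.

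In edgeR's quasi-likelihood fit, 0 of 26335 genes (0%) had an adjusted p under 0.05 for the difference of asymmetry. With no adjustment, 1086 genes had a p under 0.05 and a ratio more to the right in heterotaxy, which was 4.12%, and 644 genes, or 2.45%, a ratio more to the left. DESeq2, run as an alternative, called 18 of 14592 genes more to the right, or 0.123%, and 2 more to the left, or 0.0137%. The clusters were formed on asymmetry, so that these counts describe the grouping.

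Among so many genes, some separate 6 embryos from 10 by chance alone, and the clusters were formed on asymmetry. How many would do so was not worked out, and nothing is read from the counts that follow. The ratios of all 6 heterotaxy embryos lay above those of all 10 situs solitus embryos for 8 genes, which was 0.0304% of the genes fitted, and below them for 1 gene, which was 0.0038%. Of these 9 genes, 5 reached 200 reads, and all 5 were more to the right in heterotaxy. They were *Vgll3*, a cofactor of TEAD transcription factors, *Tac2*, which encodes the neuropeptide neurokinin B, *Hand1*, a transcription factor of the heart and lateral mesoderm, *Nabp1*, a single-stranded DNA binding protein, and *Mcoln1*, a cation channel of lysosomes. The promoters of *Vgll3* and *Tac2*, the 2 with the largest differences, are shown because each window holds a match to a motif of a pathway named here. They are the 250 bases before the annotated start in RefSeq on GRCm38.p6, both on the plus strand, at chr16:65814939-65815188 and chr10:127724228-127724477.
Vgll3: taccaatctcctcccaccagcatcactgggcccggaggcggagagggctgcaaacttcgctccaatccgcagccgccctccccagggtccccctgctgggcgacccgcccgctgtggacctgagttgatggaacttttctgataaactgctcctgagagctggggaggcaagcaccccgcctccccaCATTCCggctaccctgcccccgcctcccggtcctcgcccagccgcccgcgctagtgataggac
Tac2: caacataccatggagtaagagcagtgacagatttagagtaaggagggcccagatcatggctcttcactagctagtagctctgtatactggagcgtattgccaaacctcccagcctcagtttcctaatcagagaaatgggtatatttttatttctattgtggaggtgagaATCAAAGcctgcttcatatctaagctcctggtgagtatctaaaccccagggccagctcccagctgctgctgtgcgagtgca
Capitals mark a match to the TEAD motif GGAATG, read on the other strand, in *Vgll3*, and a match to the TCF/LEF motif CTTTGAT of WNT signaling, also on the other strand, in *Tac2*. Both strands were searched, also for the bicoid motif TAATCC of paired-type homeodomain factors, and the motifs do not overlap. Of 32851 mouse promoters of this length, 12.6% held the TEAD motif, 3.21% the TCF/LEF motif and 6.25% the bicoid motif. Of 13 genes looked up, 9 had a promoter entry, and among these the bicoid motif was in 1 of the 4 promoters of *Retreg1* and in no other. A match is a description of the letters and not a binding site.

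*Vgll3* (GRCm39 chromosome 16, 65611923 to 65663369) had ratios of 0.33, 0.86 and 1.09 in heterotaxy as the lowest, median and highest, and of -4.04, -1.06 and 0.13 in situs solitus. On the left its level had a median of 3.84 CPM in heterotaxy and 4.30 CPM in situs solitus, and on the right of 7.36 and 3.06 CPM. With all 6 heterotaxy embryos, the clusters thus differed in their medians mainly on the right side. This rested on 15_5, which had 38.0 (left) and 47.6 CPM (right). Without it the heterotaxy medians were 2.44 (left) and 4.86 CPM (right). Heterotaxy was then lower than situs solitus on the left and higher on the right. The difference of asymmetry was 2.07 ± 0.48 (SE, 6 and 10 embryos), or 4.19-fold. It ranged from 1.80 without the embryo 22_4, whose left side had the highest situs solitus level of 42.8 CPM, to 2.24 without 22_1.

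*Tac2* (chromosome 10, 127560347 to 127567638) was higher on the right in all 6 heterotaxy embryos, with ratios of 0.13, 1.25 and 1.92 as the lowest, median and highest, and in 2 of 10 situs solitus embryos, with ratios of -2.79, -0.41 and 0.11. The right level had a median of 4.18 CPM in heterotaxy and 1.19 CPM in situs solitus, and the left level of 2.09 and 1.90 CPM. Its difference was 1.82 ± 0.40, and 1.97 without the embryo 15_5. That embryo had 30.5 CPM of *Tac2* on its left and 43.3 CPM on its right, where no other library of the 2 clusters exceeded 8.38 CPM, whereas its ratio of 0.51 was within the range of its cluster.

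*Hand1* (chromosome 11, 57719531 to 57723644) was higher on the left in all 10 situs solitus embryos and on the right in all 6 heterotaxy embryos. Its ratios were -4.18, -0.49 and -0.01 as the lowest, median and highest in situs solitus, and 0.08, 0.23 and 0.98 in heterotaxy, so that the nearest embryos of both clusters were close to 0. The difference was 1.25 ± 0.39. The situs solitus mutant 2_2 had only 1.56 CPM of *Hand1* on its right, and the difference without it was 1.02.

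The other 2 genes differed by less and with a smaller spread. *Nabp1* (chromosome 1, 51505021 to 51517584) had ratios of 0.10 to 0.53 in heterotaxy and of -0.65 to 0.07 in situs solitus, a difference of 0.57 ± 0.11. Its median level on the right was 28.5 CPM in heterotaxy and 20.8 CPM in situs solitus. *Mcoln1* (chromosome 8, 3550452 to 3565253) had ratios of 0.03 to 0.42 against -0.56 to 0.01, a difference of 0.30 ± 0.08. The genes under 200 reads were *Vdr*, the vitamin D receptor (difference 1.99 ± 0.46), *Traf1* (1.57 ± 0.53), *Gm16244* (1.08 ± 0.23) and *Gm43903* (-2.42 ± 0.80), the last being the gene more to the left. *Gm43903* had at most 9 reads in any library and 0 on the right of 4 heterotaxy embryos, so that counting error is large for it.

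**Figure D2:**
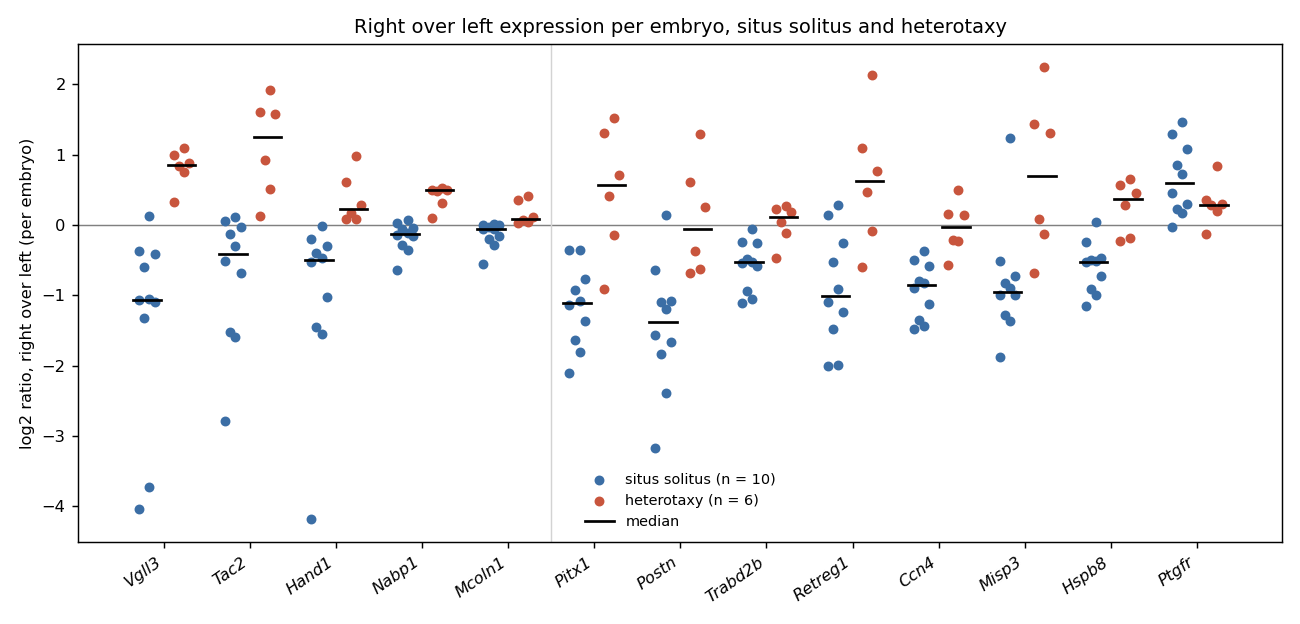
Log2 ratio of right over left for each embryo (points, with a bar at the cluster's median) of situs solitus (blue) and heterotaxy (red), by gene. *Vgll3*, *Tac2* and *Hand1* lie above 0 in all 6 heterotaxy embryos, and *Ccn4* in heterotaxy spreads around 0 from -0.57 to 0.50.

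The study's text names 8 genes as a signature shared by its abnormal clusters, chosen on these libraries, so that their direction here is not independent evidence. The 7 left-sided members had a positive difference in heterotaxy and the right-sided member, *Ptgfr*, a negative one. *Ccn4* (chromosome 15, 66763060 to 66795050), a secreted matrix protein induced by WNT signaling, was left-sided in all 10 situs solitus embryos, with ratios of -1.48, -0.86 and -0.36 as the lowest, median and highest. In heterotaxy it had ratios of -0.57, -0.03 and 0.50, with 3 of 6 embryos higher on the right, so that the clusters overlapped between -0.57 and -0.36. Its difference was 0.89 ± 0.20. The median left level was 20.8 CPM in situs solitus and 16.5 CPM in heterotaxy, and the median right level was 9.54 and 16.1 CPM.

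*Pitx1*, a transcription factor of the hindlimb field and lateral mesoderm, had the largest difference of the 8, 1.67 ± 0.43. It was left-sided in all 10 situs solitus embryos (-2.11 to -0.35) and right-sided in 4 of 6 heterotaxy embryos (-0.91 to 1.52). *Postn*, the matrix protein periostin, had a ratio of -1.41 ± 0.29 in situs solitus and of 0.08 ± 0.37 in heterotaxy, a difference of 1.48 ± 0.47. *Retreg1*, a receptor for autophagy of the endoplasmic reticulum, differed by 1.52 ± 0.41, *Misp3* by 1.55 ± 0.57 (0.81 without the 4 embryos of the highest yolk sac ratio), *Trabd2b*, a metalloprotease that antagonizes WNT proteins, by 0.60 ± 0.19, and *Hspb8*, a small heat shock protein, by 0.86 ± 0.18. Ranges of the 2 clusters overlapped for each of the 8 genes. *Ptgfr*, the receptor of prostaglandin F, kept a right-sided ratio in 5 of 6 heterotaxy embryos, with a difference of -0.35 ± 0.21, which was -0.66 against the situs solitus mutants, -0.04 against the wild types and -0.01 in males alone.

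Heterotaxy embryos differed among themselves in how many of the 7 left-sided genes were higher on the right. All 7 were in the embryos 19_4 and 32_3, 5 in 15_5, 3 in 3_7 and 23_3, and 1 in 18_1. In the situs solitus embryos the number was 0 to 2. The median ratio of the 7 genes was 1.29 in 32_3 and 0.57 in 19_4, and it lay between -0.19 and 0.19 in the other 4 heterotaxy embryos. A cluster mean near 0 for *Postn* or *Ccn4* was thus made of embryos on either side of 0.

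**Figure D3:**
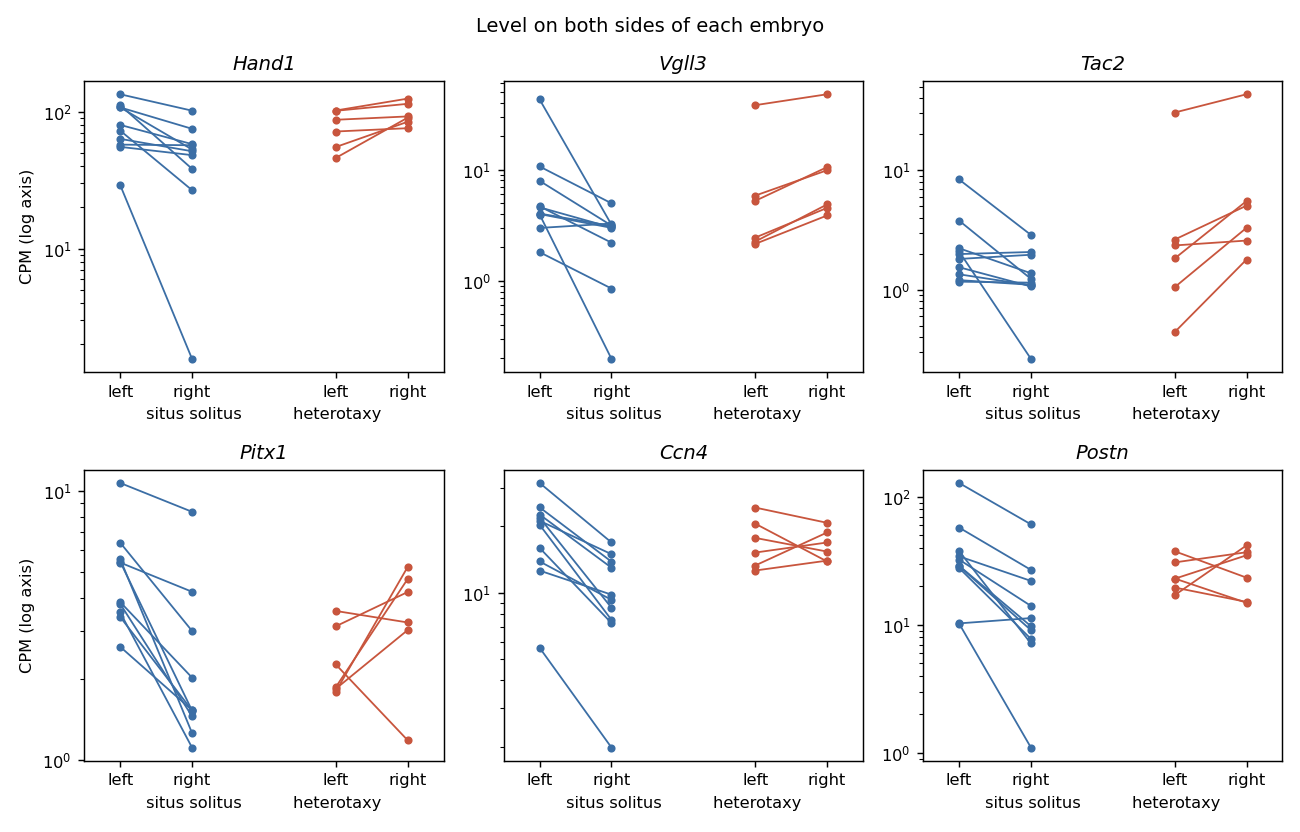
CPM (log axis) on the left and on the right of each embryo, for situs solitus (blue) and heterotaxy (red), with 1 panel for each gene and a line joining both sides of an embryo. The median of *Ccn4* in situs solitus is 20.8 (left) and 9.54 CPM (right), and it is 16.5 and 16.1 CPM in heterotaxy.

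Unlike the signature genes, *Lefty2*, a NODAL antagonist that acts as a feedback inhibitor, was left-sided in all 6 heterotaxy embryos, with ratios of -5.18, -1.93 and -1.12 as the lowest, median and highest, and in situs solitus its ratios were -6.80, -1.08 and 0.00. Its left level had a median of 3.89 CPM in heterotaxy and 1.60 CPM in situs solitus. The difference of asymmetry was -0.52 ± 0.79, and it was -0.01 without the embryo 15_5, -0.86 without 2_2 and -0.32 against the situs solitus mutants. It turned to 0.28 without the 4 embryos of the highest yolk sac ratio. *Nodal* and *Lefty1* had medians under 0.3 CPM on each side of both clusters, and their differences of -0.67 ± 0.87 and 0.27 ± 0.79 also changed sign under other settings. Without 15_5 the difference of *Lefty1* was 0.10. *Ism1*, a secreted antagonist of NODAL, was right-sided in 7 of 10 situs solitus embryos and in 3 of 6 heterotaxy embryos, with a difference of -0.62 ± 0.23. Over the 13 NODAL pathway genes with at least 200 reads the median difference was 0.03.

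Of all genes, the fit called 11 as left-sided in situs solitus, or 0.0418%, and 2 as right-sided, or 0.00759%. In heterotaxy it called 1 gene as left-sided, or 0.0038%. Nothing is read from these counts, since the grouping fixed them in part and the clusters differ in size.

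Of the 13 genes called in situs solitus, 9 had a fitted ratio of the same sign in heterotaxy, and for *Ccn4* (-0.04) and *Tubb2a*, a beta tubulin (-0.03), it was close to 0. *Dcaf12l1* had a ratio of -1.12 in situs solitus and -0.91 in heterotaxy (difference 0.21 ± 0.28), and the noncoding *Gm35533* one of -1.12 and -0.91 (0.21 ± 0.24). *Lpl*, the lipoprotein lipase, had -0.48 and -0.34 (0.14 ± 0.12). For *4930512H18Rik* the ratios were -1.70 and -1.19 (0.51 ± 0.51), and for *Gm43697* they were -3.36 and -1.73 (1.63 ± 0.91). *Dcaf12l1* was left-sided in all 16 embryos, with ratios of -2.16 to -0.28 in situs solitus and -1.52 to -0.15 in heterotaxy. *Scn3a*, a sodium channel, had ratios of -0.96 and -0.24 (difference 0.72 ± 0.27). *Hspb8* (0.27), *Vcan* (-0.11), *Tmem88* (0.04) and *Plekhh2* (-0.02) had the opposite sign in heterotaxy, where the ratios of *Tmem88* and *Plekhh2* were close to 0. *Vcan*, the versican of cardiac jelly, was right-sided in 9 of 10 situs solitus embryos and in 1 of 6 heterotaxy embryos, a difference of -0.36 ± 0.08.

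**Figure D4:**
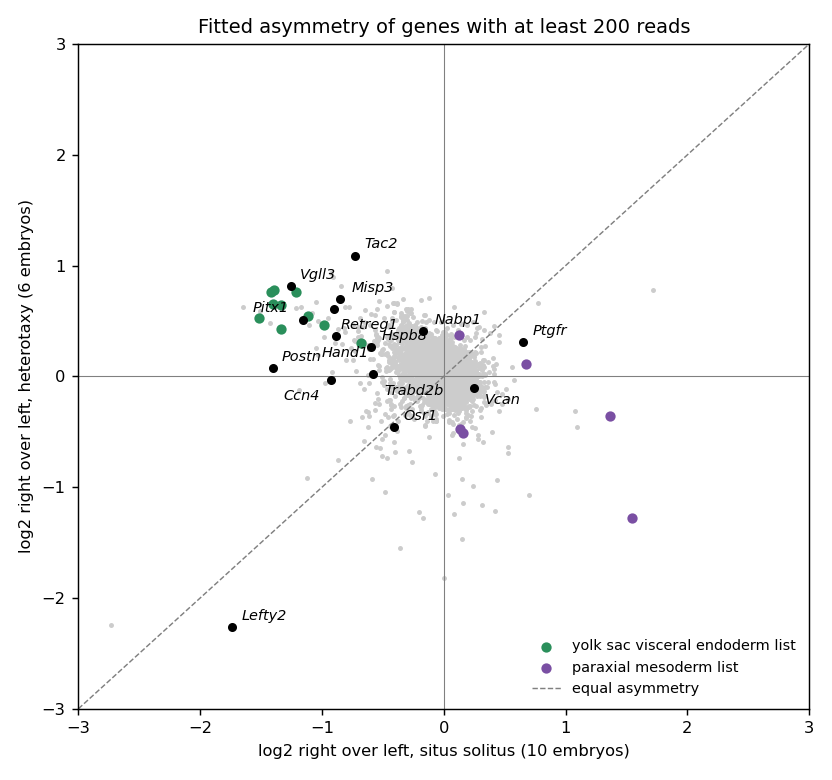
Fitted log2 ratio of right over left in situs solitus (horizontal axis, 10 embryos) against heterotaxy (vertical axis, 6 embryos), 1 point for each gene with at least 200 reads, with yolk sac genes in green, paraxial mesoderm genes in purple and a dashed line of equal asymmetry. *Lefty2* lies to the left side in both (-1.74 and -2.26), whereas *Vgll3* (-1.25 and 0.81) and *Pitx1* (-1.15 and 0.51) lie to the left only in situs solitus.

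WNT proteins bind Frizzled receptors and steer both cell fate and cell polarity in the mesoderm. Of 17 ligands and receptors with at least 200 reads, 10 had a positive and 7 a negative difference, with a median of 0.21 against -0.01 over all genes. The embryo medians of this list were centred at -0.05 in situs solitus, with the right higher in 4 of 10 embryos, and at 0.09 in heterotaxy, with the right higher in 5 of 6. *Wnt1*, a ligand of the dorsal neural tube, had the largest difference in size of the 17, -1.76 ± 1.73, which was close to its error. *Wnt6* had a difference of 0.80 ± 0.19, with the right higher in 5 of 6 heterotaxy and 2 of 10 situs solitus embryos, and *Fzd1* one of 0.90 ± 0.42. *Wnt11* stayed left-sided in 5 of 6 heterotaxy and 9 of 10 situs solitus embryos, with a difference of 0.36 ± 0.37, and this was 0.08 without the embryo 19_4, 0.19 without 2_2, 0.55 without 15_5 and 0.04 in males alone. *Fzd10* and *Wnt16* had negative differences, of -0.69 ± 0.36 and -0.88 ± 0.46. That of *Fzd10* was -0.20 in males alone. That of *Wnt16* was -0.42 against the situs solitus mutants, -1.34 against the wild types and -0.45 without the 4 embryos of the highest yolk sac ratio. The 11 secreted modulators had a median of 0.18, with *Sfrp5* at 0.67 ± 0.28, *Dkk1* at 0.58 ± 0.28 and *Sfrp2* at -0.44 ± 0.31 (-0.27 without 10_1). Their embryo medians were centred at -0.25 in situs solitus, with the right higher in 1 of 10 embryos, and at 0.07 in heterotaxy, with the right higher in 4 of 6. Of 13 WNT targets and feedback genes, 10 had a negative difference, with a median of -0.14, from *T*, the mesoderm gene Brachyury, at -1.19 ± 1.27 to *Ccn4* at 0.89.

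BMP signals act on the lateral plate in balance with NODAL. Of 14 BMP ligands, antagonists and response genes, 12 had a positive difference, with a median of 0.22. *Msx2*, a response gene of BMP, was higher on the right in all 6 heterotaxy embryos (0.16 to 0.75) and in 1 of 10 situs solitus embryos (-1.33 to 0.30), a difference of 0.75 ± 0.17. The ligands *Bmp4* and *Bmp2* differed by 0.53 ± 0.21 and 0.29 ± 0.23, the latter being 0.17 without 10_1.

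Among 20 genes of the venous pole and cardiopulmonary progenitors, 13 had a positive difference and the median was 0.06. The largest were *Hand1*, *Gata4* (0.93 ± 0.47) and *Wt1* (0.89 ± 0.29), transcription factors of the lateral mesoderm and proepicardium. *Wt1* was higher on the right in all 6 heterotaxy embryos and in 2 of 10 situs solitus embryos. The lung progenitor gene *Wnt2* differed by 0.43 ± 0.34, which was 0.22 without the embryo 2_2, 0.27 against the wild types and 0.20 without the block for embryos, and *Osr1*, a marker of second heart field progenitors, by -0.05 ± 0.24 (0.21 in males alone), with *Osr1* higher on the left in all 6 heterotaxy and in 8 of 10 situs solitus embryos. The 14 genes of the anterior second heart field had a median of 0.17, with *Tbx1* at 0.88 ± 0.50, and the 18 genes of collagens and matrix one of 0.19, with *Col1a1* at 0.57 ± 0.20. The list of lateral plate and limb regulators had a median of 0.18 over 11 genes.

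Other tissues of the dissected piece also differed in their ratio. Values for the yolk sac are set beside the genes above, and the part of the other tissues was not tested. Of 12 listed genes of the yolk sac visceral endoderm 11 were fitted, and all 10 with at least 200 reads had a difference above 0.5, with a median of 1.98, from -1.34 in situs solitus to 0.60 in heterotaxy. The embryo medians were spread from -3.22 to 2.43 in situs solitus and from -1.14 to 3.35 in heterotaxy, with the right higher in 3 of 6 heterotaxy embryos and 1 of 10 situs solitus embryos. The summed level of this list was 165 to 1110 CPM on the left and 403 to 1296 CPM on the right of heterotaxy, and 45.1 to 1262 CPM and 29.2 to 938 CPM in situs solitus. The endoderm of the yolk sac is outside the heart field, and *Cubn*, a receptor for uptake from the lumen, had a difference of 2.18 ± 1.18 and *Apoa1*, an apolipoprotein, one of 2.05 ± 1.14.

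Without the 4 embryos with a yolk sac ratio above 0.5 (3_7, 15_5 and 32_3 of heterotaxy and 8_1 of situs solitus), a choice made after the values were seen, the differences were 2.29 for *Vgll3*, 2.16 for *Tac2*, 1.32 for *Hand1*, 1.97 for *Pitx1*, 0.86 for *Ccn4* and 1.30 for *Postn*. *Misp3* had 0.81 in place of 1.55 and *Retreg1* 1.12 in place of 1.52. Across embryos of a cluster, the ratio of *Misp3* was highest where that of the yolk sac genes was highest, at 2.25 in 32_3 of heterotaxy and 1.23 in 8_1 of situs solitus. Pearson's r between them was 0.96 (Spearman's rho 0.94) in the 6 heterotaxy and 0.94 (rho 0.83) in the 10 situs solitus embryos. This is a description of ratios like those the clusters were formed on. Of 26 such values of r, for 13 genes in the 2 clusters, the other 24 lay between -0.41 (*Hspb8*, heterotaxy) and 0.69 (*Retreg1*, heterotaxy). Values of r in so few embryos are unstable. Without the 2 embryos of a cluster farthest from its median yolk sac ratio, those of *Misp3* were 0.91 in heterotaxy and 0.90 in situs solitus, while in heterotaxy that of *Vgll3* was -0.92 in place of 0.05, that of *Pitx1* -0.80 in place of 0.02, that of *Mcoln1* 0.81 in place of 0.60 and that of *Retreg1* -0.02 in place of 0.69.

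Paraxial mesoderm, which forms the somites, went the other way. Of its 6 genes with at least 200 reads, 5 had a difference below -0.5, with a median of -0.64. *Myf5*, a regulator of muscle fate, differed by -2.82 ± 1.01 and *Meox2*, a transcription factor of somites, by -1.73 ± 0.92. The embryo medians of this list ranged from -1.94 to 1.13 in heterotaxy and from -0.72 to 1.71 in situs solitus, with the right higher in 2 of 6 and 8 of 10 embryos. The 7 neural tube genes had a median of -0.34. The 16 heart muscle genes had a median of 0.30, with 15 of them positive, and embryo medians of -0.49 to 1.41 in heterotaxy and -1.84 to 1.12 in situs solitus. For these 2 lists the middle embryo gave the opposite order, with medians over embryos of -0.01 in heterotaxy and 0.26 in situs solitus for heart muscle, and of 0.08 and 0.04 for the neural tube. Foregut endoderm had a median of 0.28 over 14 genes, with *Spink1* at 1.22 ± 0.45. The medians of primitive blood (-0.08), endothelium and endocardium (-0.14), neural crest (-0.12), retinoic acid and Hox genes (-0.01), dividing cells (-0.09), glycolysis and hypoxia (-0.13), immediate early genes (-0.05) and motile cilia (-0.01) were within 0.15 of 0. Small as they were, differences were negative for 14 of 15 genes of dividing cells and 13 of 14 of glycolysis and hypoxia. The same held for 12 of 15 genes of endothelium and endocardium.

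**Figure D5:**
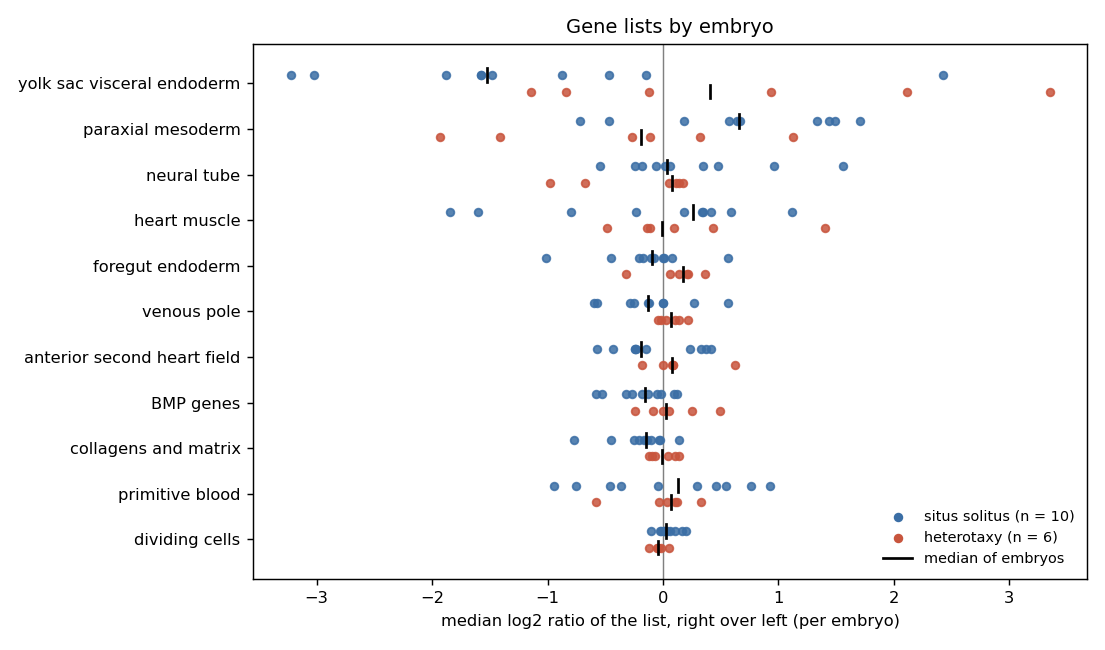
Median log2 ratio of right over left over the members of each gene list (rows), 1 point for each embryo of situs solitus (blue) and heterotaxy (red), with bars at the medians. The yolk sac list spreads from -3.22 to 3.35 over the 16 embryos, and the clusters overlap in this list and in the paraxial mesoderm list.

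The level of both sides together was the measure that the grouping had not used. The question was whether the genes described above were also more or less abundant in heterotaxy. In edgeR's quasi-likelihood test with sex in the model, 0 of 27606 genes (0%) had an adjusted p under 0.05, and 1480 (5.36%) had an unadjusted p under 0.05. DESeq2 called 3 genes, *Gm15459* (log2 difference 2.75), *Gm19325* (-0.76) and *Ppp1r18* (0.22). Of 22 genes that the study's text names, 0 were called and 5 had an unadjusted p under 0.05. Without the embryo 15_5 this was 1 gene, the mutated *Ccdc40*, and without 10_1 it was 3. Of the 9 genes whose embryos did not overlap in asymmetry, 0 were called and 2 had an unadjusted p under 0.05, namely *Tac2* and *Traf1*, and 0 had one without 15_5. The level of *Traf1* in 15_5 was 1.71 CPM (left) and 3.47 CPM (right), against at most 0.79 CPM in any other library. Over all genes, 964 of 27417 (3.52%) had an unadjusted p under 0.05 without 15_5.

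*Ccn4* had a level difference of 0.21 on the log2 scale and *Pitx1* one of -0.37, with adjusted p of 1.00 and 0.99 in edgeR's test. The highest level differences among genes of the asymmetry results rested on the embryo 15_5. *Tac2* had a log2 level difference of 1.87 (edgeR adjusted p = 0.81), which was 0.48 without this embryo. *Hspb8* went from 1.07 to 0.21, *Plac8* from 1.29 to 0.25, *Dio3* from 0.98 to 0.10, *Vgll3* from 0.97 to 0.01 and *Lefty2* from 1.44 to 0.62. Their differences of asymmetry without 15_5 were 0.82 for *Hspb8*, 0.76 for *Plac8*, 1.95 for *Dio3* and 2.18 for *Vgll3*, against 0.86, 0.79, 1.86 and 2.07 with it. *Ccdc40* had a level difference of -0.41, and situs solitus here mixes 2 genotypes.

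The situs solitus cluster itself joins wild types and mutants, and its mutants were placed there for an asymmetry like that of the wild types. A low count of differences between the 2 genotypes is thus in part fixed by the grouping, and nothing is read from it. In edgeR's fit 0 of 26335 genes (0%) had an adjusted p under 0.05 for mutants minus wild types, 916 (3.48%) had an unadjusted p under 0.05, and DESeq2 called 0. The difference of heterotaxy was 0.91 from situs solitus mutants and 0.88 from wild types for *Ccn4*, 1.78 and 1.56 for *Pitx1*, 1.95 and 1.71 for *Tac2*, 1.47 and 1.06 for *Hand1*, and 1.75 and 2.34 for *Vgll3*. *Nodal* had 0.41 and -1.48, at levels under 0.3 CPM.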

How the data were processed

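Left and right heart fields of 21 embryos were sequenced as polyA RNA. The authors trimmed adapters, removed duplicates, aligned reads to GRCm39 with STAR, counted them with featureCounts (Subread 2.0.6) and deposited raw counts for 56953 Ensembl genes, of which 12119 were at 0 in every library. The strand setting and the handling of reads on several genes are not given in the sources used here, so that overlapping genes are uncertain. Embryos, sides, genotypes and sexes came from the labels and clusters from the study's grouping. Members and lists were chosen with earlier results of these data known.

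Genes were kept by filterByExpr with min.prop 0.2, large.n 50, a min.count of 5 and a min.total.count of 10. edgeR 4.0.16 (R 4.3.3) with TMM was fitted to the 42 libraries, with a block for each embryo, and the Benjamini-Hochberg method gave adjusted p-values. Both sides come from 1 embryo, and after removal of group means their correlation over 2000 variable genes had a median of 0.288 (0.0048 to 0.768, over 0.1 in 18 of 21 pairs). Levels were tested on counts summed over both sides, with sex. Log2 ratios of single embryos used CPM with a prior count of 2. The tests were two-sided and were tested on simulated data first.

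Named genes were those of the study's text, those without overlap between clusters (the 10 largest in each direction, at least 200 reads), up to 3 members of each list, and *Ccdc40*, and 1 gene that this rule names is not reported here. Genes called in situs solitus, genes called by DESeq2 1.42.0 and the lists of trophoblast, decidua and interferon response were added after values were seen. Promoters came from RefSeq. Alternatives were DESeq2, no block, other filters and scaling, other references, males alone and each embryo left out. Each embryo is 1 replicate. Counting error matters most for genes of few reads, such as *Nodal* and *Gm43903*.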

Additional observations from a re-analysis of the deposited data

Results flagged for a closer look

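Of 204 groups of values examined, 28 held an embryo far from the others of its cluster, where chance would give about 1 in 20 independent groups. These groups share embryos and genes and are not independent, so that no excess over chance is read from the count. Of the 28, 12 were the situs solitus mutant 2_2 and 4 were the heterotaxy embryo 15_5.

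The embryo 2_2 had the lowest log2 ratio of right over left of its cluster for *Lefty2* (-6.80), *Hand1* (-4.18), *Wnt2* (-3.18) and *Igfbp2* (-0.58). Its log2 CPM of both sides was the lowest of its cluster for *Trabd2b* (1.90), *Ccn4* (1.99), *Misp3* (0.23), *Wnt2* (4.03), *Bmp2* (3.56), *Gal* (-1.25), *Shox2* (-0.59) and *Hand1* (4.04). *Hand1*, *Wnt2* and *Shox2* are genes of the venous pole, and the cause was not tested.

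The embryo 15_5 had the highest log2 CPM of both sides of its cluster for *Hspb8* (5.94), *Vgll3* (5.43) and *Tac2* (5.21), and the lowest ratio for *Lefty2* (-5.18). Its levels of trophoblast, decidua and interferon response genes were above those of the other embryos, and their part in these values was not tested.

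In situs solitus, other embryos far from the rest were 8_1 for the ratios of *Misp3* (1.23) and *Vcan* (-0.094), 10_1 for those of *Shox2* (-2.50), *Mcoln1* (-0.56) and *Pdlim2* (-0.89), 22_4 for that of *Atp8b3* (-0.40), and 17_7 for the levels of *Hspb8* (3.69) and *Tac2* (2.54). In heterotaxy they were 18_1 for the ratio of *Plac8* (-0.40), 19_4 for the median ratios of the NODAL pathway (0.22) and the anterior second heart field (0.63), and 3_7 for the level of *Wnt16* (-2.68).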

How the results depend on the processing

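Without the embryo block, the check of the pairing, 0 genes were called for the difference of asymmetry, and 5 genes in place of 13 for the asymmetry of situs solitus. The block moved no other count by over 1.5 times. The count of 0 for the difference was 0 under every edgeR setting and with each embryo left out, and was 20 with DESeq2 and 31 with DESeq2 without 15_5 (17 genes shared, a setting chosen after the data were seen). Heterotaxy had 1 gene called, 5 with DESeq2, and 0 to 1 with an embryo left out. Situs solitus had 13, 84 with DESeq2, 8 with scaling by library size alone, and 5 to 29 with an embryo left out (29 without 22_4, 5 without 7_1). The 9 genes without overlap became 227 against situs solitus mutants alone, 102 against wild types alone, 11 to 41 with an embryo left out (41 without 15_5, 32 without 22_4) and 242 without the 4 embryos of high yolk sac ratio, and fewer embryos raise this count by construction. For the level, DESeq2 gave 3 genes, 2 without 15_5, and edgeR 0 to 1 with an embryo left out (*Gm15459* without 19_4, 23_3 or 32_3). Of 26 named genes, 23 kept the sign of their difference under every alternative but those chosen after the data were seen, and *Lefty1*, *Nodal* and *Osr1* did not. The 26 include the 5 genes picked for no overlap and the 8 signature genes, all chosen on these libraries. Their sign was thus in part fixed by the choice. *Lefty2* moved from -0.52 to 0.28 without the 4 embryos. Under these alternatives 597 values stayed within 1 SD of the embryos, and 1 did not, *Nodal* against situs solitus mutants (0.41 from -0.67). This SD is wide and exceeds some of the differences, as for *Wnt11* (SD 0.85, difference 0.36) and *Lefty2* (1.76 and -0.52). Staying within it was thus likely from the start, and no stability is read from this count. The causes were not tested.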
